A study of Mus musculus with 6 samples.

Results

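The genes described here are 8 of the 22180 measured: Ido1, Ido2, Tdo2 and Kynu, which act on tryptophan, and Arg1, Arg2, Nos2 and Slc7a2, which act on arginine. They were chosen by name for their place in these pathways, and no measured value enters the rule. Earlier results of these data were known when they were chosen. Each was read from the brightest probe set annotated to that gene only, and each of the 8 had 1 such probe set. Expression was measured in 6 tumours at day 20, with 1 Affymetrix array per tumour. The tumours grew from B16-F1 cells, a pigmented mouse melanoma line, implanted at the flank of C57BL6 mice. In 3 the host was WT and in 3 it lacked Stat2 (Stat2 KO). The genotype is that of the host, the labels do not give the implanted cells as lacking Stat2, and both groups carry the same tumour line. Whether any mouse gave more than 1 tumour is not in the labels, and the p-values describe the spread among these 6 tumours.

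Tryptophan and arginine are amino acids that T cells need, and their breakdown by tumour or myeloid cells is a known brake on T cell responses. The dioxygenases Ido1, Ido2 and Tdo2 open the ring of tryptophan on the way to kynurenine, which Kynu breaks down further and which can act on T cells through the receptor Ahr. Slc7a2 carries arginine into the cell. There, Arg1 in the cytosol and Arg2 in mitochondria turn it into ornithine and urea, while Nos2 turns it into nitric oxide and citrulline. Interferons are known inducers of Ido1 and Nos2, and type I interferon signals through STAT2, whereas interleukin 4 and interleukin 13 are known inducers of Arg1 in macrophages.

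None of the 8 genes differed between tumours of Stat2 KO and WT hosts beyond the spread between tumours. The differences, given throughout in log2 units as Stat2 KO host minus WT host, ran from -0.15 for Arg1 to 0.21 for Ido1, with SEs from 0.126 to 0.192. Of the 8 genes, 0 passed at a limma p under 0.05 adjusted over all genes by Benjamini-Hochberg, 0 at an unadjusted p under 0.05, and 0 had groups that did not overlap. The same rules took 0.00902%, 8.82% and 13.3% of all genes. The limma adjusted p-values of the 8 genes ran from 0.721 to 0.961. Exact two-sided permutation of the 6 arrays gave p from 0.2 to 0.7, where 0.1 is the smallest p that 3 against 3 can give.

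The 8 probe sets were dim. Olfactory receptor genes, whose known role is in the nose, serve here as a measure of what a probe set reads without its transcript. The 1105 measured ones had a median log2 level of 5.21 and a 95th percentile of 6.72. Mean levels of the 8 genes lay between 4.77 for Tdo2 and 6.59 for Arg1, so each mean was below that percentile. Of the 48 single values, 3 were above it, all of Arg1. Arg1 read above 93.1% of the olfactory receptor genes, Nos2 above 89.95%, Ido1 above 87.7% and Arg2 above 87.4%. The shares were 70.3% for Ido2, 65.1% for Slc7a2, 54.6% for Kynu and 33.8% for Tdo2. None of the 8 was thus shown to read above background in these tumours, and a difference read this low on the array can understate the change of a transcript. Different probe sets bind with different strength, so these levels do not rank the genes by amount of transcript.

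**Figure D1:**
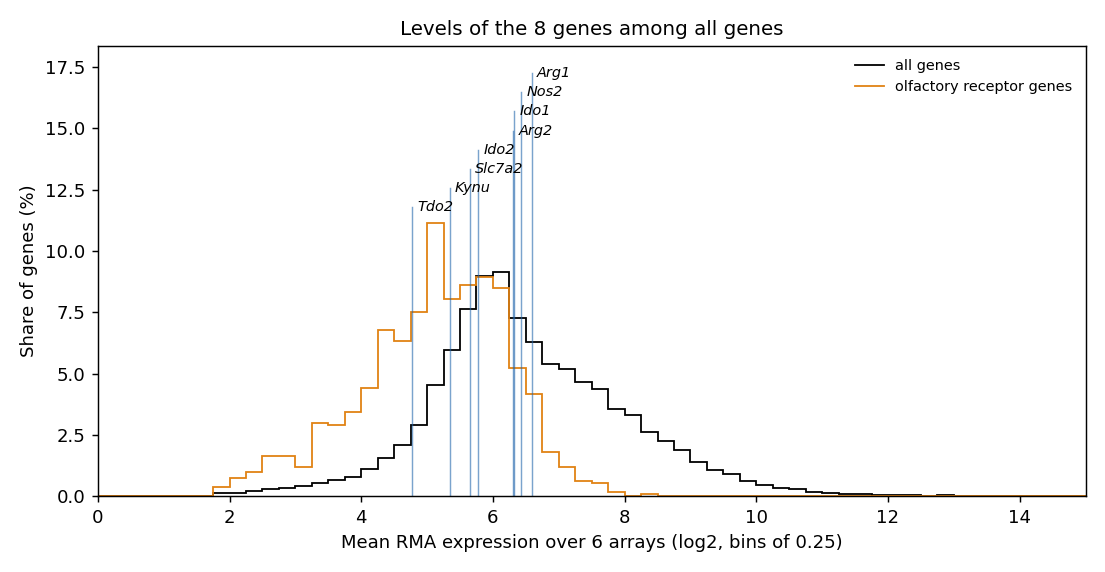
Share of genes (vertical axis, %) by mean log2 expression over the 6 arrays (horizontal axis, bins of 0.25), for all 22180 genes (black) and for 1105 olfactory receptor genes (orange). Blue lines mark the means of the 8 genes, which lie between 4.77 and 6.59, inside the range of the olfactory receptor genes.

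Dim genes as a class read slightly higher in the tumours of Stat2 KO hosts. The median difference was 0.22 over the olfactory receptor genes and 0.021 over all genes, with 0.11 over genes below the level of the median gene and -0.068 over those above. Of the 8 genes, 6 read higher in Stat2 KO hosts (Ido1, Tdo2, Kynu, Arg2, Nos2 and Slc7a2) and 2 lower (Ido2 and Arg1), while 54.0% of all genes read higher. The differences of 8 of 8 genes lay below the median difference of the olfactory receptor genes, as deposited and after quantile normalization, median centring or cyclic loess. In the last 2 of these, Nos2 also read lower.

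Ido1 encodes the interferon-inducible dioxygenase of antigen-presenting cells and many tumours. It read 6.19, 6.67 and 6.42 in the Stat2 KO hosts, against 6.17, 5.98 and 6.51 in the WT hosts, in replicate order. Stat2 KO replicate 2 was the highest tumour and WT replicate 2 the lowest, and WT replicate 3 lay within the Stat2 KO values. The means were 6.43 ± 0.241 and 6.22 ± 0.265 (log2, SD, n = 3 each). The difference was 0.21, with a 95% confidence interval from -0.17 to 0.58, or 0.892-fold to 1.49-fold. Leaving out Stat2 KO replicate 2 brought the difference to 0.084, and leaving out WT replicate 2 brought it to 0.088. It was 0.33 when Stat2 KO replicate 1 was left out, and 0.35 with groups that no longer overlapped when WT replicate 3 was.

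Ido2 encodes a related dioxygenase with weaker activity on tryptophan, and its gene stands next to Ido1 in the RefSeq table of GRCm38.p6. It read 5.68, 5.83 and 5.80 in Stat2 KO hosts, against 5.72, 5.79 and 5.87 in WT hosts. All 6 tumours lay within 0.20 of each other, and the groups overlapped. The difference was -0.024 (SE 0.131, 95% interval -0.31 to 0.26). After quantile normalization, median centring or cyclic loess the groups no longer overlapped and Ido2 was lower in each Stat2 KO tumour, but 0 of these 3 scalings gave it an unadjusted p under 0.05. The sign turned to 0.022 without Stat2 KO replicate 1 and to 0.015 without WT replicate 3.

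Tdo2 encodes the dioxygenase that handles dietary tryptophan in the liver. It read lowest of the 8, with 5.04, 4.76 and 4.73 in Stat2 KO hosts, against 4.61, 4.64 and 4.85 in WT hosts. Stat2 KO replicate 1 was the highest tumour, and without it the difference of 0.15 (SE 0.159, 95% interval -0.20 to 0.49) was 0.048. It was 0.080 after median centring and 0.066 after cyclic loess. Kynu encodes kynureninase, which splits kynurenine and 3-hydroxykynurenine. It measured 5.52, 5.44 and 5.25 in Stat2 KO hosts, against 5.15, 4.97 and 5.73 in WT hosts. WT hosts held both the lowest and the highest tumour, and their SD of 0.401 was the widest among the 8 genes in either group. The difference of 0.12 (SE 0.192, 95% interval -0.30 to 0.54) was -0.040 without WT replicate 2 and 0.34 without WT replicate 3.

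Arg1 encodes the cytosolic arginase that marks alternatively activated macrophages and suppressive myeloid cells. It read 6.73, 6.15 and 6.68 in Stat2 KO hosts, against 6.36, 6.76 and 6.87 in WT hosts. Each group held 1 low tumour, Stat2 KO replicate 2 and WT replicate 1, beside 2 tumours at similar levels. The means were 6.52 ± 0.320 and 6.66 ± 0.271 (log2, SD, n = 3 each), a difference of -0.15 (95% interval -0.55 to 0.26, or 0.684-fold to 1.196-fold). Without Stat2 KO replicate 2 the difference was 0.039, and without WT replicate 1 it was -0.30 and the groups no longer overlapped. The sign of the Arg1 difference thus rested on 1 tumour.

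Arg2, the mitochondrial arginase, read 6.30, 6.43 and 6.41 in Stat2 KO hosts, against 6.09, 6.33 and 6.26 in WT hosts. WT replicate 2 lay just above Stat2 KO replicate 1, and the other WT tumours lay below each Stat2 KO tumour. The means were 6.38 ± 0.072 and 6.23 ± 0.122 (log2, SD, n = 3 each), a difference of 0.15 (SE 0.132, 95% interval -0.13 to 0.44). Its unadjusted limma p was 0.267 and its adjusted p 0.731. The difference was 0.085 without WT replicate 1, and 0.094, 0.087 and 0.083 after quantile normalization, median centring and cyclic loess. Among the 8 genes Arg2 had the smallest exact permutation p, 0.2.

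Nos2 encodes the inducible nitric oxide synthase of classically activated macrophages. It varied least, with 6.41, 6.45 and 6.51 in Stat2 KO hosts, against 6.33, 6.40 and 6.48 in WT hosts. All 6 values lay within 0.18 of each other. The difference was 0.052 (SE 0.126, 95% interval -0.22 to 0.33, or 0.857-fold to 1.25-fold), and it was -0.014 after median centring and -0.0040 after cyclic loess. Slc7a2, the arginine carrier CAT2 that supplies both enzymes in activated macrophages, read 5.60, 5.80 and 5.72 in Stat2 KO hosts, against 5.43, 5.66 and 5.67 in WT hosts. WT replicate 1 was the lowest tumour and the groups overlapped, with a difference of 0.12 (SE 0.139, 95% interval -0.19 to 0.42). It was 0.038 when WT replicate 1 and 0.069 when Stat2 KO replicate 2 was left out, and 0.032, 0.051 and 0.013 after quantile normalization, median centring and cyclic loess.

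**Figure D2:**
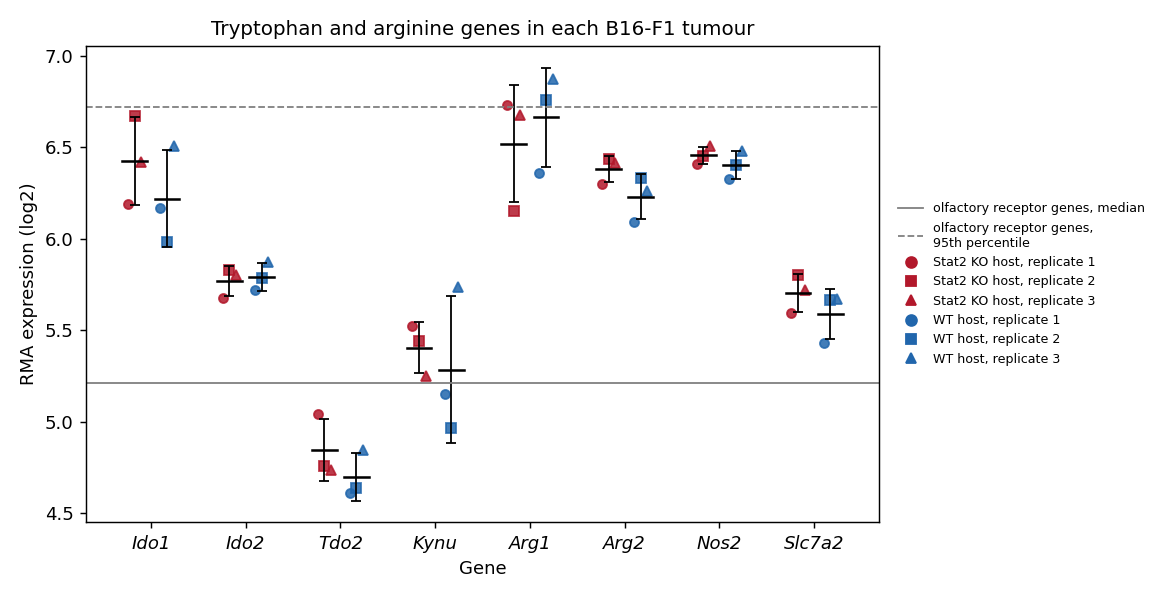
Log2 expression (vertical axis) of the 8 genes in each of the 6 tumours, Stat2 KO hosts in red and WT hosts in blue, with a symbol for each replicate number, horizontal bars for group means and error bars for the SD (n = 3). The groups overlap for all 8 genes, and only 3 Arg1 values stand above the 95th percentile of olfactory receptor genes (dashed line, 6.72).

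Arginase and nitric oxide synthase compete for arginine, so Arg1 was also set against Nos2 within each array. The log2 value of Arg1 minus that of Nos2 was 0.32, -0.30 and 0.17 in Stat2 KO hosts, against 0.032, 0.36 and 0.39 in WT hosts. Stat2 KO replicate 2 and WT replicate 1 were the low tumours, as for Arg1 itself. The difference between hosts was -0.20 (exact two-sided permutation p = 0.5), and leaving out single tumours gave -0.33 to -0.015.

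**Figure D3:**
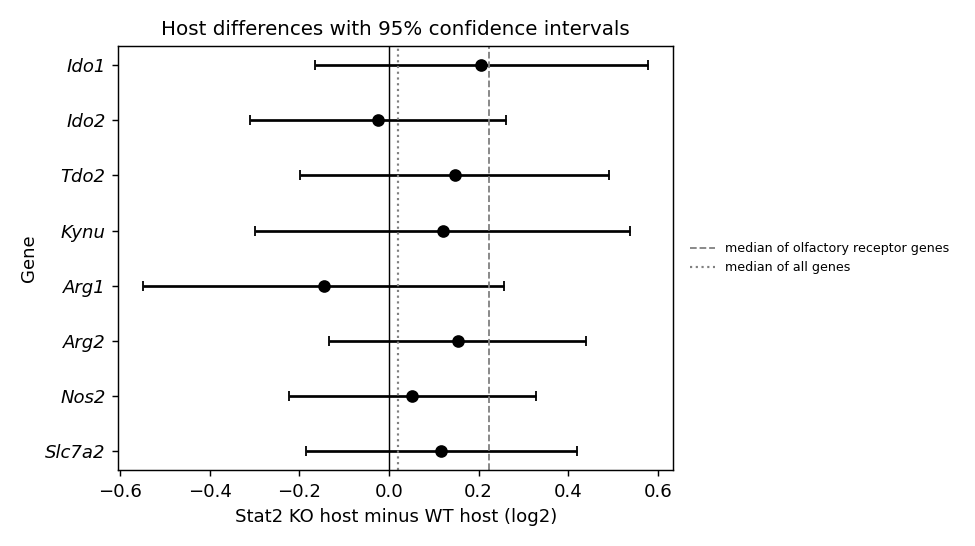
Stat2 KO host minus WT host difference (log2, horizontal axis) of each of the 8 genes with its 95% confidence interval from limma. Every interval spans 0, and every point lies left of the median of the olfactory receptor genes (dashed line, 0.22).

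The other genes of both pathways were taken from 10 lists with 101 genes, of which 94 had a probe set that named them alone. By limma, 0 of the 94 passed at an adjusted p under 0.05. At an unadjusted p under 0.05 there were 16 lower and 4 higher in Stat2 KO hosts, beside 3.48% lower and 5.34% higher of all genes. Groups did not overlap for 10 lower and 9 higher, beside 5.11% and 8.23% of all genes. The direction of small differences depended on scaling. Among all genes at an unadjusted p under 0.05, 771 were lower and 1185 higher as deposited, and 1083 lower and 715 higher after median centring.

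Enzymes that use tryptophan or its products went both ways. Of 12 measured, 3 read lower and 9 higher, with a median of 0.063 that was -0.0034 after median centring, and 0 passed an unadjusted p of 0.05 in either direction. Qprt, which feeds quinolinate into NAD synthesis, differed by 0.31, and Acmsd, which diverts the pathway from quinolinate, by 0.24. The median difference of olfactory receptor genes was 0.22, and Qprt and Acmsd read above only 82.4% and 70.7% of them. Wars, the interferon-inducible tryptophanyl-tRNA synthetase, read 9.08, 8.80 and 8.74 in Stat2 KO hosts, against 9.17, 9.33 and 8.82 in WT hosts. The Wars difference was -0.23 with overlapping groups (adjusted p = 0.684).

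Carriers of tryptophan and other large neutral amino acids were brighter, and 4 of 5 read lower in Stat2 KO hosts, with a median of -0.33. Leaving out Stat2 KO replicate 2 or WT replicate 2 gave a median of -0.21 or -0.19. It was -0.49 when WT replicate 3 was left out, and -0.17 when a gene's probe sets were averaged. At an unadjusted p under 0.05 there were 2, both lower, beside 3.48% lower of all genes. The 4 that read lower are brighter than the median gene, and 65.3% of such genes read lower. Slc7a8, the transporter LAT2, read 8.27, 7.53 and 7.70 in Stat2 KO hosts, against 9.29, 9.35 and 7.89 in WT hosts. The difference of -1.01 (SE 0.327, limma adjusted p = 0.486) was carried by WT replicates 1 and 2, since WT replicate 3 lay among the Stat2 KO values. Slc36a4 differed by -0.42 with groups that did not overlap (adjusted p = 0.509). Slc3a2, the heavy chain that Slc7a8 pairs with, differed by -0.33 with overlapping groups.

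Genes of kynurenine sensing went both ways, with 5 of 9 lower, 4 higher and a median of -0.0014. In each direction 1 had an unadjusted p under 0.05, beside 3.48% lower and 5.34% higher of all genes. Ahr, the receptor that binds kynurenine, read 7.46, 7.16 and 6.96 in Stat2 KO hosts, against 7.59, 7.88 and 7.44 in WT hosts. Stat2 KO replicate 1 lay just above WT replicate 3, and the difference was -0.45 (SE 0.165, adjusted p = 0.509). Cyp1a1, a classical target of Ahr, read 6.34, 6.42 and 6.23 in Stat2 KO hosts, against 5.90, 6.02 and 5.75 in WT hosts. It was higher in each Stat2 KO tumour, by 0.43 (SE 0.135, adjusted p = 0.472), at a level above only 81.7% of olfactory receptor genes. Tiparp, another Ahr target, differed by -0.23 and Cyp1b1 by -0.13, so these targets did not share a direction.

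Among carriers of cationic amino acids, 4 of 6 read lower (median -0.096), and 1 was lower at an unadjusted p under 0.05 (3.48% of all genes). This was Slc7a1, the widely used arginine carrier CAT1, at 9.02, 8.40 and 8.62 in Stat2 KO hosts, against 9.07, 9.34 and 8.87 in WT hosts. Stat2 KO replicate 1 lay among the WT tumours, and the difference was -0.41 (SE 0.180, adjusted p = 0.555). Genes of arginine synthesis and the urea cycle read lower in 2 and higher in 7 of 9, with a median of 0.14. Of these, 1 was lower and 2 higher at an unadjusted p under 0.05, beside 3.48% and 5.34% of all genes. Groups did not overlap for 1 lower and 4 higher, beside 5.11% and 8.23%. Gamt, which methylates the arginine-derived precursor of creatine, was the lower member, with 7.81, 7.40 and 7.59 against 8.41, 8.31 and 7.91 in WT hosts (difference -0.61, SE 0.166, adjusted p = 0.460). The higher members at that p were Agmat, annotated as agmatinase (0.35), and Otc (0.35), which makes citrulline from ornithine in the liver and whose probe set read above only 49.7% of olfactory receptor genes. Cps1 followed with 0.27 and groups that did not overlap, at a level above 88.3% of olfactory receptor genes. The list's median of 0.14 was below the median difference of olfactory receptor genes, 0.22.

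Genes around ornithine and polyamines, the products downstream of arginase, read lower in 9 of 9 measured members, with a median of -0.26. The list also holds genes that control polyamine synthesis or break polyamines down, so its count does not describe synthesis alone. Each of the 9 is brighter than the median gene, and 65.3% of such genes read lower. With Stat2 KO replicate 2 left out the list's median was -0.12, and so it was with WT replicate 1 left out. Of the 9, 2 had an unadjusted p under 0.05, beside 3.48% lower of all genes and 5.62% of the genes brighter than the median gene. Aldh18a1, which makes the precursor of proline and ornithine from glutamate, read 7.97, 7.21 and 7.57 in Stat2 KO hosts, against 8.20, 8.35 and 8.07 in WT hosts, without overlap (difference -0.62, SE 0.183, adjusted p = 0.461). Smox, which oxidises spermine, differed by -0.42 with overlapping groups. Odc1, the enzyme that commits ornithine to polyamines, differed by -0.16 and Srm, the spermidine synthase, by -0.29, neither with an unadjusted p under 0.05.

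Genes of nitric oxide synthesis and its control were lower in 5 and higher in 5 of 10, with a median of 0.020 that was -0.046 after median centring. Spr, which completes the cofactor tetrahydrobiopterin, differed by -0.41, and Ddah2, which clears a natural inhibitor of the synthases, by 0.44 (unadjusted p = 0.0324 and 0.0339 by limma, adjusted p = 0.538 for both). For Ddah2, WT replicate 3 at 6.65 lay among the Stat2 KO tumours, while the other WT tumours read 5.92 and 5.98. Gch1, the first enzyme of the cofactor's synthesis, differed by 0.063.

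Of the signals that act on Ido1 and Nos2, 9 of 12 measured genes read lower and 3 higher, with a median of -0.14. The list holds Tgfb1, Bin1 and Socs1, which are also known to restrain these genes, and 6 of the other 9 read lower. The 3 that read higher are dimmer than the median gene. Among all genes brighter than the median gene, 65.3% read lower. Ifngr1, a chain of the interferon gamma receptor, read 8.21, 8.05 and 7.86 in Stat2 KO hosts, against 8.48, 8.55 and 8.27 in WT hosts, without overlap (difference -0.39, SE 0.145, adjusted p = 0.509). Ifng itself read 5.77, 5.51 and 5.74 against 5.58, 5.35 and 5.83, a difference of 0.090 with overlapping groups at a dim level. Tnf was higher in each Stat2 KO tumour, by 0.19 (adjusted p = 0.671), at a level above only 81.2% of olfactory receptor genes. Irf1, the transcription factor that interferon gamma induces, differed by -0.24, with the highest value, 7.23, in WT replicate 3. Of the signals known to induce Arg1, 8 of 13 read lower and 5 higher, with a median of -0.048 that was 0.018 without Stat2 KO replicate 1. Il13ra1, a receptor chain for interleukin 13, read 7.53, 6.63 and 7.52 in Stat2 KO hosts, against 8.31, 8.13 and 7.63 in WT hosts (difference -0.80, SE 0.241, adjusted p = 0.462). Il4ra differed by -0.048, and Il13 by 0.28 with overlapping groups.

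**Figure D4:**
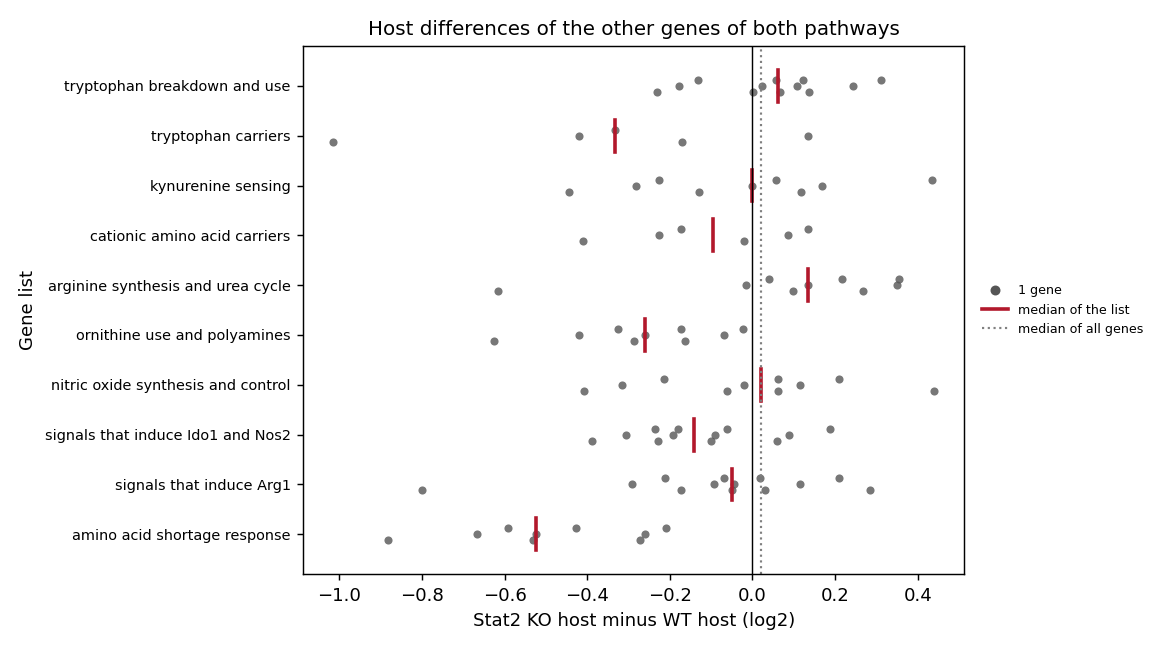
Stat2 KO host minus WT host difference (log2, horizontal axis) of each measured gene of the 10 lists (grey points), with the median of each list in red and that of all genes as a dotted line. The medians run from -0.52 for the amino acid shortage response to 0.14 for arginine synthesis and the urea cycle, and no single gene passed the adjusted threshold.

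Genes listed for the response to amino acid shortage read lower in Stat2 KO hosts in all 9 measured. Their median was -0.52, where the median over all genes was 0.021. Amino acid levels were not measured, and whether a shortage or another stress moved these genes was not tested. The sensor of this response, Eif2ak4, the kinase GCN2, is switched on by uncharged tRNA when an amino acid such as tryptophan or arginine runs short, with the help of Gcn1. It raises translation of Atf4, a transcription factor whose targets include the other 6 genes of the list. At an unadjusted p under 0.05 there were 6 of 9, each lower, beside 3.48% lower of all genes and 5.62% of the genes brighter than the median gene. Groups did not overlap for 5 of 9, each lower, beside 5.11% and 8.21%. By limma 0 of the 9 passed at an adjusted p under 0.05. The list was chosen with earlier results of these data known, so these counts describe the data and are not a test. Among genes brighter than the median gene, to which all 9 belong, 65.3% read lower.

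Chac1, which degrades glutathione and is a sensitive target of Atf4, read 6.999, 7.13 and 6.76 in Stat2 KO hosts, against 7.90, 8.32 and 7.33 in WT hosts. The groups did not overlap, and the difference was -0.88 (SE 0.215, 95% interval -1.35 to -0.42, adjusted p = 0.390). Sesn2, which restrains mTORC1 when amino acids are short, read 6.32, 6.09 and 6.19 against 6.86, 7.20 and 6.56, a difference of -0.67 (SE 0.167, adjusted p = 0.403). Atf4 itself read 7.41, 7.35 and 7.14 against 7.67, 8.01 and 7.81, a difference of -0.52 (SE 0.143, adjusted p = 0.460). The groups of Sesn2 and Atf4 did not overlap either, and WT replicate 2 held the highest value of all 3 genes.

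Ddit3, the stress transcription factor CHOP, differed by -0.59 (SE 0.201, adjusted p = 0.490), with Stat2 KO replicate 1 at 8.03 just above WT replicate 3 at 8.02. Outside the naming rule, the remaining members are given so that the list is complete. Asns, asparagine synthetase, differed by -0.53 with overlapping groups and Trib3, a pseudokinase that feeds back on Atf4, by -0.43 without overlap. Cth, which makes cysteine, differed by -0.26 without overlap. The sensor Eif2ak4 and its partner Gcn1 differed by -0.27 and -0.21, both with overlapping groups.

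The mean level of the list was 7.42, 7.24 and 7.11 in Stat2 KO hosts, against 7.72, 7.97 and 7.54 in WT hosts, without overlap. All 9 genes were lower under each scaling and without each tumour in turn, and the list's median stayed between -0.68 and -0.36. Without WT replicate 2 the count at an unadjusted p under 0.05 was 3 of 9. With array weights, which give less weight to arrays that vary more, Chac1, Sesn2, Atf4 and Ddit3 passed (adjusted p from 0.0287 to 0.0374), and 257 of all genes did. Over all alternatives the adjusted p of Chac1 ran from 0.0287 to 0.887.

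**Figure D5:**
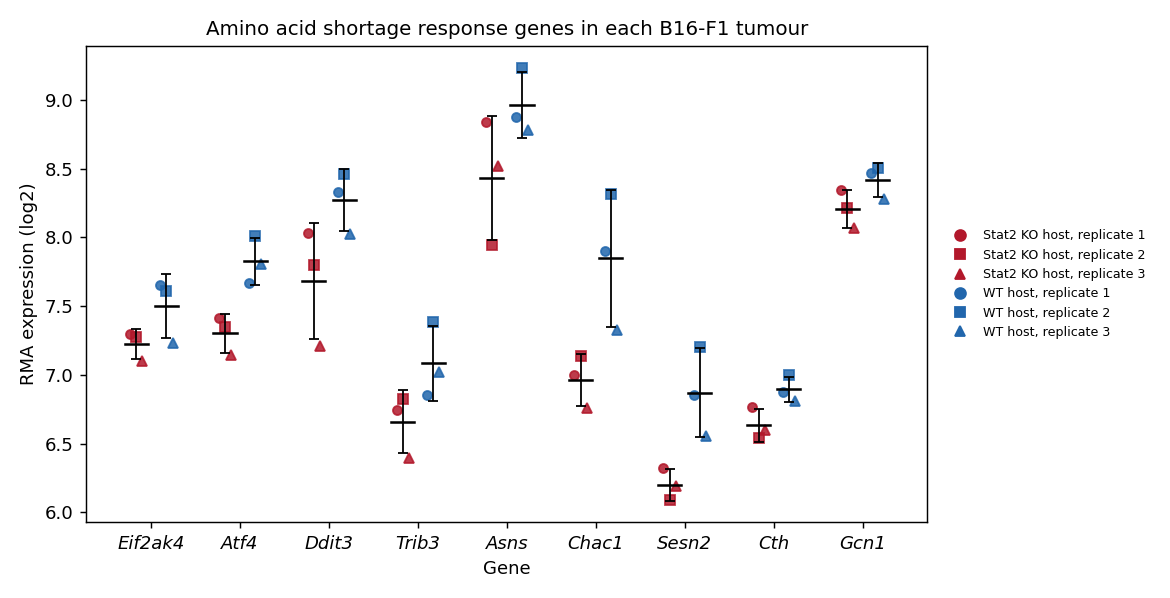
Log2 expression (vertical axis) of the 9 genes of the amino acid shortage response in each of the 6 tumours, Stat2 KO hosts in red and WT hosts in blue, with group means as horizontal bars and the SD as error bars (n = 3). Chac1, Sesn2, Atf4, Trib3 and Cth are lower in each Stat2 KO tumour than in any WT tumour, by limma with no adjusted p under 0.05.

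Markers of the cells that could hold the 8 transcripts were read from fixed lists. RMA values have no zero, so a marker's absence shows as a level within that of the olfactory receptor genes. Of 8 melanocyte markers, 8 read above all olfactory receptor genes and 7 read lower in Stat2 KO hosts, with array means of 11.18 to 11.61 in Stat2 KO and 11.43 to 11.68 in WT hosts, as the label of a melanoma asks. Macrophage markers read lower in 11 of 12 members, 4 of them at an unadjusted p under 0.05 and 3 without overlap (3.48% and 5.11% of all genes), with array means of 6.21 to 6.44 in Stat2 KO and 6.52 to 6.71 in WT hosts. C1qb, a complement subunit, differed by -0.95 (adjusted p = 0.195) and the lysosomal Cd68 by -0.61 (adjusted p = 0.449). In bulk tumours, fewer cells of a type and less RNA per cell cannot be told apart. Markers of alternatively activated macrophages, the class known for Arg1, read higher in 7 of 10, with array means of 5.48 to 5.78 against 5.36 to 5.65. Their median difference was 0.15, where that of olfactory receptor genes was 0.22. Among genes brighter than the median gene it was -0.038, from a single member. Of the markers in this list, Clec10a, a lectin, differed by 0.62 at a level above only 40.4% of olfactory receptor genes. Neutrophil markers read higher in 9 of 10, with array means of 5.41 to 5.51 against 5.18 to 5.37, and 10 of 10 had group means below the 95th percentile of olfactory receptor genes. Their median difference was also 0.15.

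Monocyte markers (3 of 5 lower) had array means of 5.37 to 5.56 in Stat2 KO and 5.38 to 5.53 in WT hosts, dendritic cell markers (6 of 9 higher) 6.62 to 6.80 and 6.70 to 6.80, and markers of T and NK cells (8 of 10 higher) 5.66 to 5.91 and 5.64 to 5.79. Fibroblast markers had array means of 6.24 to 6.65 and 6.80 to 7.03, with 6 of 7 lower and a median of -0.41. Of these, 3 had an unadjusted p under 0.05 and 2 did not overlap (3.48% and 5.11% of all genes). Dcn differed by -0.94 without overlap (adjusted p = 0.351), at a level above only 80.6% of olfactory receptor genes. Lum differed by -1.21 with overlapping groups (adjusted p = 0.462), at a level above only 81.3%. Endothelial markers (3 of 6 lower) lay at 6.59 to 6.99 and 6.85 to 6.98, and keratinocyte markers (3 of 5 higher) at 5.77 to 5.996 and 5.71 to 5.85. Hepatocyte markers, included because liver is the main site of Tdo2 and Arg1, were higher in 6 of 7 and lay at 6.07 to 6.37 and 6.02 to 6.09. The median difference was 0.092 for T and NK cell markers and 0.18 for hepatocyte markers. Both were below the 0.22 of olfactory receptor genes. Stat2 KO replicate 2, the tumour with the lowest Arg1 and the highest Ido1, was at an end of most marker lists. It was lowest for melanocyte, endothelial and fibroblast markers. It was highest for hepatocyte, keratinocyte, neutrophil, T and NK cell and alternatively activated macrophage markers. For macrophage, monocyte and dendritic cell markers it was at neither end. Its median over all genes, 6.44, was the highest of the 6 arrays. The part of these shifts in the results on the 8 genes and the amino acid shortage response was not tested.

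Across all genes, pairs of arrays correlated at 0.964 to 0.986, and array medians ran from 6.27 to 6.44. Stat2 read 6.45, 6.48 and 6.33 in Stat2 KO hosts, against 6.79, 6.70 and 6.70 in WT hosts, a difference of -0.31 (SE 0.126, adjusted p = 0.532). The implanted cells can express Stat2, and where its probe set lies relative to the deletion is not known here, so this checks the labels only weakly.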

How the data were processed

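The authors deposited 1 log2 value for each probe set on each array. Per the submitters' processing notes, these came from RMA in Affymetrix Expression Console 1.3.1, which corrects background and quantile-normalizes. Apart from the RefSeq table of GRCm38.p6, no source used here names a genome build, so coordinates are left out. Of 41345 probe sets, 23521 name 1 gene, 1814 several and 16010 none in the platform annotation, and a gene was its brightest probe set among those naming it alone, with no filter on dim values.

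Differences were fitted over all 22180 genes with limma 3.58.1 in R 4.3.3 (lmFit, eBayes with an intensity trend), two-sided, with Benjamini-Hochberg adjustment and a threshold of 0.05. It gave every SE, 95% interval and p-value of a gene, except those called exact. The procedure was tested on simulated data. Lists are described by counts and medians only.

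The 8 genes, the lists and the tests were chosen with earlier results of these data known. Named are the 8 genes, Stat2, and up to 4 genes of each list with the smallest p; others are background to these (Tiparp, Cyp1b1, Odc1, Gch1, Ifng, Il4ra and the rest of the amino acid shortage list), and some of them were chosen after their values were seen. Genes alike in pattern were to be named for members spanning over 1 log2 unit, and 0 did. The alternatives were a replicate block, further scalings, a filter on dim genes, other probe set and variance settings, array weights, and each array left out. Probe-level intensities and scan dates were not used here. The number of arrays limits the precision.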

Additional observations from a re-analysis of the deposited data

How the results depend on the processing

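Of the 8 genes, 0 passed an adjusted or an unadjusted p of 0.05 under any alternative run. The reversals were Ido2 at 0.022 when Stat2 KO replicate 1 and 0.015 when WT replicate 3 was left out (range with 1 array left out -0.061 to 0.022), Kynu at -0.040 without WT replicate 2 (range -0.040 to 0.34), Arg1 at 0.039 without Stat2 KO replicate 2 (range -0.30 to 0.039), and Nos2 at -0.014 after median centring and -0.0040 after cyclic loess. Groups did not overlap for 1 member (Ido2) after quantile normalization, median centring or cyclic loess, and for 0 to 4 with 1 array left out, the 4 being Ido1, Tdo2, Kynu and Nos2 without WT replicate 3. Genes called over the whole table numbered 0 after quantile normalization, 0 after cyclic loess, 0 over all probe sets, 1 without the trend, 257 with array weights, and 0 to 17 with 1 array left out. At an unadjusted p under 0.05 there were 1956, with 5004 under array weights, 938 among genes brighter than the median gene (fewer genes tested) and 1177 to 3260 with 1 array left out.

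For lists, medians after quantile normalization, median centring and cyclic loess were 0.20, 0.070 and 0.20 for arginine synthesis and the urea cycle, -0.030, -0.046 and -0.043 for nitric oxide, and -0.096, -0.11 and -0.11 for signals that induce Arg1. Median centring also gave -0.0034 for tryptophan breakdown, -0.068 for kynurenine sensing and -0.21 for signals that induce Ido1 and Nos2. Among genes brighter than the median gene, which leaves fewer members, they were -0.23 for kynurenine sensing, -0.23 for cationic amino acid carriers, 0.22 for arginine synthesis, -0.041 for nitric oxide, -0.21 for signals that induce Ido1 and Nos2 and -0.13 for those that induce Arg1. Array weights gave -0.067 for kynurenine sensing and 4 adjusted calls in the amino acid shortage response. With 1 array left out, medians ran from 0.094 to 0.21 for arginine synthesis, -0.30 to -0.12 for ornithine and polyamines and -0.10 to 0.018 for signals that induce Arg1. In the amino acid shortage response, 3 to 7 genes were then at an unadjusted p under 0.05 and 5 to 9 without overlap. The cause of these shifts was not tested.

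With the replicate number as a block, 3 genes were called over the whole table, 0 of them among the 8 genes or the amino acid shortage response. At an unadjusted p under 0.05 there were 2484 of all genes, 0 of the 8 genes and 6 of the amino acid shortage response. Calls in the other lists were not recounted with the block. Same-numbered tumours correlated in their deviations from the group means at 0.24, 0.079 and 0.030, and differently numbered ones at -0.29 to 0.20. These values do not settle whether the numbers pair the tumours, and the main fit did not use them. The filter on dim genes left only Arg1 and Nos2 of the 8, and none of the 8 had a further probe set to try.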
